A study of Mus musculus with 4 samples.

Results

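The genes for the synthesis, transport and reception of prostaglandin E2 were followed step by step, from the phospholipase that frees the substrate to the receptors that bind the product. They were picked from the table by symbol: *Pla2g4a*, *Ptgs1*, *Ptgs2*, *Ptges*, *Ptges2*, *Ptges3*, *Abcc4*, *Hpgd*, *Ptger2* and *Ptger4*. All 10 were found among the 55450 genes of the count table, each on 1 row. The table held RNA-seq counts of MLO-Y4 cells, an immortalised mouse cell line with osteocyte features, of wild-type genotype and seeded to 60% confluency. In the unloaded group (n = 2) the cells stood for 12 h on an ordinary 6-well culture plate in the incubator that housed the loading device. In the loaded group (n = 2) they stood for 12 h on a collagen I-coated plate of elastic silicone that was stretched equally in all directions at 0.5 Hz and 20% strain. The plate and its coating differed along with the stretch, so that plate and loading cannot be told apart. The samples came from 1 cell line, and the p-values below measure only the spread between these 4 libraries.

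Prostaglandin E2 is made from arachidonic acid, which cytosolic phospholipase A2 releases from membranes. The cyclooxygenases turn it into prostaglandin H2, and terminal synthases turn that into prostaglandin E2. The product leaves the cell through the transporter MRP4 and other routes, is inactivated by 15-hydroxyprostaglandin dehydrogenase, and acts on neighbouring cells through 4 G protein-coupled receptors. In bone, osteocytes release prostaglandin E2 upon mechanical stimulation, and the EP2 and EP4 receptors raise cyclic AMP in the cells that carry them.

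The libraries held 28941994 and 30058313 counts in the unloaded group and 32185693 and 30337236 counts in the loaded group, and 3 counts corresponded to 0.0930 to 0.103 CPM, the count per library scaled to a common size. Replicates differed by more than sampling noise and were kept as separate samples. Of the osteocyte markers, *Pdpn*, *Phex* and *Gja1* were expressed, *Dmp1* had 12 to 14 counts in each library, *Sost* had 4 counts in 1 library and *Mepe* had 0 counts in all. *Csf1r*, a receptor of macrophages, was at 45688 counts or more, *Cd68* had 84 to 162, and the macrophage markers *Ptprc* and *Adgre1* had at most 4 counts. The low values were uneven: 1223 to 1259 genes per library had exactly 4 counts, against 560 to 623 with 3 and 764 to 770 with 5, so that 1 read pair may have contributed several counts.

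Genes of 3 steps of the pathway were read at higher levels in both loaded libraries than in both unloaded ones, namely the phospholipase *Pla2g4a*, the cyclooxygenases *Ptgs1* and *Ptgs2* and the exporter *Abcc4*. The inducible terminal synthase *Ptges* was lower in both. The other terminal synthases and the receptor gene *Ptger4* overlapped between the groups, and *Hpgd* and *Ptger2* had 0 counts in all 4 libraries. Of the 8 genes with enough counts to be tested, 0 reached an adjusted p under 0.01 in edgeR's quasi-likelihood test, against 0.0983% of the 16269 genes tested (0.0123% higher and 0.0861% lower). At an unadjusted p under 0.05 in that test there were 4 genes higher and 0 lower, where 6.88% of all tested genes were higher and 7.46% lower. At an adjusted p under 0.05, only *Ptgs2* was higher among the 8, where 0.338% of all tested genes were higher and 0.904% passed in either direction. That call held with other scalings (edgeR adjusted p = 0.0410 and 0.0377), at least 10 counts in every library (0.0313) and counts divided by 4 (0.0355). It also held in limma-voom (adjusted p = 0.0307), edgeR's exact test (0.00279) and DESeq2 (1.89e-06). It was lost without the filter on low counts (edgeR adjusted p = 0.0736) and with a replicate block (0.148). With single libraries left out, the log2 fold change of *Ptgs2* was 0.39 to 0.47. Groups that do not overlap are common with 2 libraries on each side, since 46.6% of all tested genes had them (22.1% higher and 24.5% lower), against 5 of these 8 (4 higher and 1 lower). The median log2 fold change was 0.14 over the 8 genes and -0.01 over all tested genes. The summed CPM of the 7 osteocyte markers also lay higher with loading, at 848 and 769.7 against 687 and 689. Most of it came from *Gja1*, which overlapped between the groups (584 and 485 against 500 and 494), and *Pdpn* (215 and 228 against 143 and 151). The study names *Pdpn* and *Ptgs2* as known targets of loading and counts both among its changed genes at a DESeq2 adjusted p under 0.01. *Phex* lay higher in both loaded libraries and *Dmp1* overlapped. *Mepe* was at 0 throughout, and *Fgf23* had 4 and 9 counts unloaded and 0 loaded. The 4 osteoclast markers summed to 5.13 and 4.85 CPM unloaded and 8.09 and 7.55 loaded, nearly all of it *Ctsk*, with *Oscar* at 0 throughout and *Acp5* and *Calcr* at 0 in 3 libraries each. The 5 osteoblast markers summed to 1043 and 1081 CPM unloaded and 989 and 1029 loaded, nearly all of it *Col1a1*, while *Runx2* lay higher in both loaded libraries. *Bglap* (0 to 4 counts), *Alpl* (0 to 14) and *Sp7* (0 to 25) were low and overlapped between the groups. The part of these markers in the values of the pathway genes was not tested. In such bulk samples, fewer cells that express a gene and less RNA per cell cannot be told apart.

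**Figure D1:**
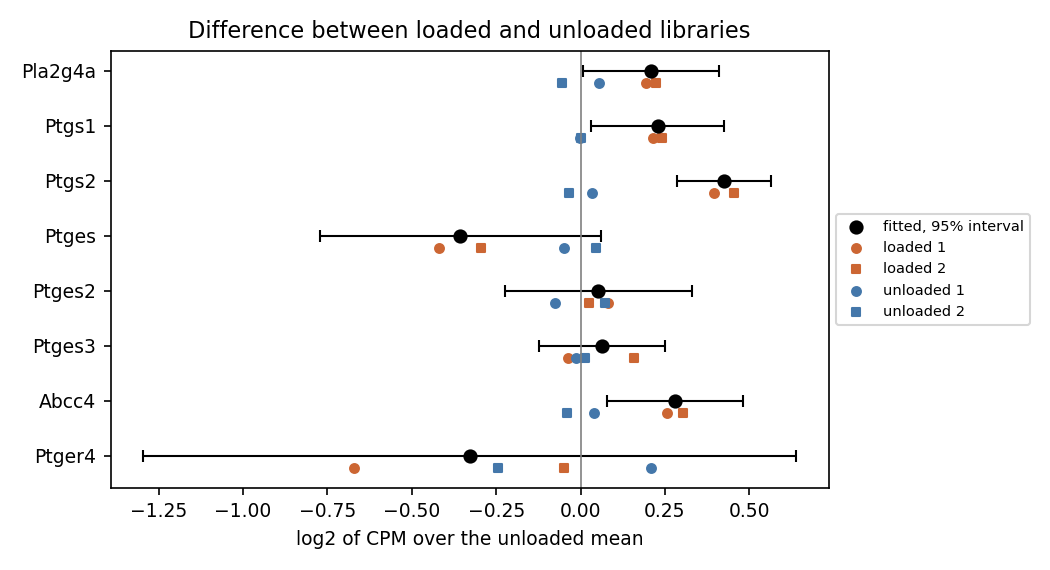
Difference between loaded and unloaded libraries for the 8 genes that could be tested. The horizontal axis is the log2 ratio of CPM over the unloaded mean; coloured points are single libraries, and black points with bars are the fitted log2 fold change and its 95% interval. The lower end of the interval was highest for *Ptgs2* (0.29 to 0.56), and the intervals of *Ptges*, *Ptges2*, *Ptges3* and *Ptger4* included 0.

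*Pla2g4a* encodes cytosolic phospholipase A2, which cuts arachidonic acid from membrane phospholipids (ENSMUSG00000056220.14, GRCm38, chromosome 1, 149829618 to 149961290, minus strand). Its counts were 2546 and 2461 without loading and 3115 and 2939 with it. On the CPM scale, these were 87.7 and 81.2 against 96.5 and 98.6, with both loaded libraries above both unloaded ones. The log2 fold change was 0.21 (SE 0.0829), a level 15.6% higher, and edgeR gave an adjusted p of 0.334. The gene lies near *Ptgs2* on the same chromosome.

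The cyclooxygenases carry out the committed step. *Ptgs1* encodes the constitutive enzyme (ENSMUSG00000047250.13, chromosome 2, 36230426 to 36252272, plus strand) and *Ptgs2* the inducible enzyme (ENSMUSG00000032487.8, chromosome 1, 150100031 to 150108227, plus strand). To show how differently the 2 genes begin, the 250 bases of DNA before each annotated start are printed. They come from the RefSeq table for GRCm38.p6, in which all 10 genes had an entry. They are joined by the same stretch of *Abcc4*, the exporter gene described further on. Capitals mark matches to any of 9 short motifs that were searched for on both strands.

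Ptgs2, chr1:150099781-150100030, plus strand: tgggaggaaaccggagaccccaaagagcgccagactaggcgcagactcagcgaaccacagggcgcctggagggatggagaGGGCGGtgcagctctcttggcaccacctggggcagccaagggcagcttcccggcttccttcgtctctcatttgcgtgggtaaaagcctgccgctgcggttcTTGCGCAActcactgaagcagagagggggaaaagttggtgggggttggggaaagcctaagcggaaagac
Ptgs1, chr2:36230176-36230425, plus strand: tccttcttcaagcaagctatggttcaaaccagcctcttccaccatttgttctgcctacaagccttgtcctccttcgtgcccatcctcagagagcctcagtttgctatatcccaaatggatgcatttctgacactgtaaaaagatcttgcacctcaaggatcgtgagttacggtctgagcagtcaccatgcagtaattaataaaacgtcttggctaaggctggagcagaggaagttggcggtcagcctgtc
Abcc4, chr14:118706220-118706469, minus strand: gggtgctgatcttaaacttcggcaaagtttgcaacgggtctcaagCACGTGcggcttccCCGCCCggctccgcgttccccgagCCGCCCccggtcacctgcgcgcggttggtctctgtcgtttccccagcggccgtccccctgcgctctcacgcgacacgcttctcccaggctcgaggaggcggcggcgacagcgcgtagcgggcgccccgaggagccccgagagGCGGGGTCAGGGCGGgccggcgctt

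The motifs were searched from 250 bases before to 50 bases after each annotated start. Positions are counted from 1 at that start, with no position 0. Where transcripts begin in these cells was not tested. The capitals of *Ptgs2* are a GC box (GGGCGG, -170 to -165), found in 35.7% of the 32851 windows in the table, and the C/EBP palindrome TTGCGCAA (-69 to -62), found in 0.183%. Just after the annotated start lay the core of a cyclic AMP response element (TGACG, on the minus strand, 14 to 18, in 20.8% of windows). It overlapped an E-box (CACGTG, 17 to 22, in 7.15%). That stretch is shown with both motifs in capitals.

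Ptgs2, chr1:150100037-150100060, plus strand: accactaCGTCACGTGgagtccgc

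The *Ptgs1* window matched none of the 9 motifs, and neither did that of *Pla2g4a*. The *Abcc4* window held an E-box (-205 to -200), the core of the antioxidant response element (TGACNNNGC, minus strand, -25 to -17; 12.4% of windows) and 3 GC boxes. The motifs TGACGTCA (1.79%), AP-1 (TGANTCA, 7.81%), NF-kB (20.7%) and TATAAA (13.6%) had no match in the 3 windows. Genes that overlapped between the groups held some of the same motifs. *Ptges3* had the antioxidant response element core (minus strand, 8 to 16), TGACG (minus strand, 12 to 16), an NF-kB match (-87 to -78) and GC boxes. *Ptges2* had an E-box (-77 to -72) and *Ptger4* had GC boxes, as did *Ptges*, which lay lower with loading. A match describes the letters and was not tested as a binding site.

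The unloaded counts of *Ptgs1* were 2153 and 2248, and the loaded counts 2778 and 2611. Its CPM were 74.1 and 74.2 against 86.1 and 87.6, with no overlap. The log2 fold change was 0.23 (SE 0.0806), or 17.1% higher, with an adjusted p of 0.287 in edgeR. An antisense gene, *Gm43621*, shares 148 bases of exon with it on the opposite strand and had 10 to 29 counts. The strand setting of the counting was not given in the sources used here, so reads in the shared bases cannot be told apart.

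*Ptgs2* had a log2 fold change of 0.42 (SE 0.0570) and was the 118th of the 16269 genes in order of p, whereas *Abcc4* was 1134th, *Ptgs1* 1675th and *Pla2g4a* 2186th. Its adjusted p was 0.0386 in edgeR's quasi-likelihood test and 1.89e-06 in DESeq2, where 1.36% of 12484 genes were higher and 1.55% lower at an adjusted p under 0.01. Within each library *Ptgs2* exceeded *Ptgs1* per exon length: the unloaded ratios were 6.33 and 6.03, and the loaded ratios 7.003 and 7.16. The mean ratio was 6.18 ± 0.207 (SD, n = 2) unloaded and 7.08 ± 0.112 (SD, n = 2) loaded, a 1.15-fold difference. The exact two-sided permutation test gave p = 0.333, the smallest that 2 libraries against 2 allow. The share of *Ptgs2* in the level per length of both cyclooxygenases moved from 85.8% and 86.3% to 87.5% and 87.7%.

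The terminal synthases complete the molecule. *Ptges* encodes microsomal prostaglandin E synthase 1, the inducible form that is often coupled to cyclooxygenase 2 (ENSMUSG00000050737.13, chromosome 2, 30889471 to 30929863, minus strand). It had 261 and 291 counts unloaded and 224 and 226 loaded, or 8.99 and 9.60 CPM against 6.94 and 7.58. Both loaded libraries lay below both unloaded ones. The log2 fold change was -0.36 (SE 0.171, 95% interval -0.77 to 0.06), with an adjusted p of 0.415 in edgeR. A pseudogene in its intron, *Gm13400*, had 1 to 10 counts.

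*Ptges2* encodes the second membrane-associated synthase (ENSMUSG00000026820.5, chromosome 2, 32395896 to 32405772, plus strand). Its CPM were 21.2 and 23.6 unloaded and 23.7 and 22.8 loaded, and the ranges overlapped. *Ptges3* encodes p23, the cytosolic synthase that also serves as an HSP90 co-chaperone (ENSMUSG00000071072.12, chromosome 10, 128058954 to 128077272, plus strand). Its CPM were 589 and 599 unloaded and 579 and 663 loaded, with the loaded libraries the lowest and the highest of the 4. The log2 fold changes were 0.05 for *Ptges2* (95% interval -0.22 to 0.33, edgeR adjusted p = 0.886) and 0.06 for *Ptges3* (-0.12 to 0.25, edgeR adjusted p = 0.768), and both changed sign when single libraries were left out (-0.013 to 0.13 and -0.038 to 0.16). The pseudogene *Ptges3-ps* is identical to *Ptges3* over 480 bases and had 41 to 78 counts, so reads may have been divided between them. Of the level per length of the 3 synthases, *Ptges3* held 97.4% to 97.9%, *Ptges2* 1.47% to 1.75% and *Ptges* 0.631% to 0.881%.

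The product is exported and inactivated. *Abcc4* encodes MRP4, an ATP-driven exporter of prostaglandin E2 and other organic anions (ENSMUSG00000032849.14, chromosome 14, 118482692 to 118706219, minus strand). Counts were 2283 and 2254 without loading and 2946 and 2812 with it. Its CPM were 78.6 and 74.4 against 91.3 and 94.4, and the groups did not overlap. The log2 fold change was 0.28 (SE 0.0830, 95% interval 0.08 to 0.48), or 21.4% higher, the largest positive value after that of *Ptgs2* among the 8 genes. The adjusted p was 0.213 in edgeR and 0.140 in DESeq2.

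*Hpgd* encodes 15-hydroxyprostaglandin dehydrogenase, which inactivates prostaglandin E2 (ENSMUSG00000031613.9, chromosome 8, 56294585 to 56321043, plus strand). It had 0 counts in all 4 libraries, which allows up to 0.0930 to 0.103 CPM per library by a limit of 3 counts. That limit covers counting error only and takes every count as an independent read. Since a read pair may have contributed several counts, the limit may be too low. No fold change can be given, and a level under that limit was not detectable at this depth.

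At the receptor step, *Ptger2* encodes EP2 (ENSMUSG00000037759.6, chromosome 14, 44988195 to 45003820, plus strand) and *Ptger4* encodes EP4 (ENSMUSG00000039942.15, chromosome 15, 5206661 to 5244187, minus strand), both of which act through Gs. *Ptger2* had 0 counts in all 4 libraries, under the same limit, which may likewise be too low. On the opposite strand, the overlapping *Gm17173* had 5 to 17 counts and *Gm49364* had 1 to 8. *Ptger4* had 63 and 48 counts unloaded and 38 and 54 loaded, or 2.17 and 1.58 CPM against 1.18 and 1.81. The groups overlapped, and the log2 fold change of -0.33 had an interval from -1.30 to 0.64 (edgeR adjusted p = 0.770). *Ttc33* on the opposite strand shares 82 bases of exon with *Ptger4* and had 1009 to 1377 counts, far more than *Ptger4*. The pseudogene *Gm15937* shares 1015 bases and had 0 to 5 counts. With the strand setting unknown, reads in the shared bases cannot be told apart.

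Levels per exon length, in TPM (counts divided by exon length and scaled to a common total), spanned from *Ptges3* to *Ptger4* in a fixed order in each library. *Ptges3* was at 886 to 997 TPM and *Ptgs2* at 388 to 538. *Ptgs1* followed at 64.4 to 75.2, *Pla2g4a* at 42.8 to 51.4 and *Abcc4* at 39.2 to 49.2, and the ranges of the last 2 overlapped. Below them were *Ptges2* at 14.5 to 15.9, *Ptges* at 5.99 to 8.23 and *Ptger4* at 0.601 to 1.13 TPM. The order of *Ptgs1* and *Pla2g4a* depended on the length used: with the longest coding transcript in place of all exons, *Pla2g4a* averaged 108 TPM and *Ptgs1* 95.1.

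**Figure D2:**
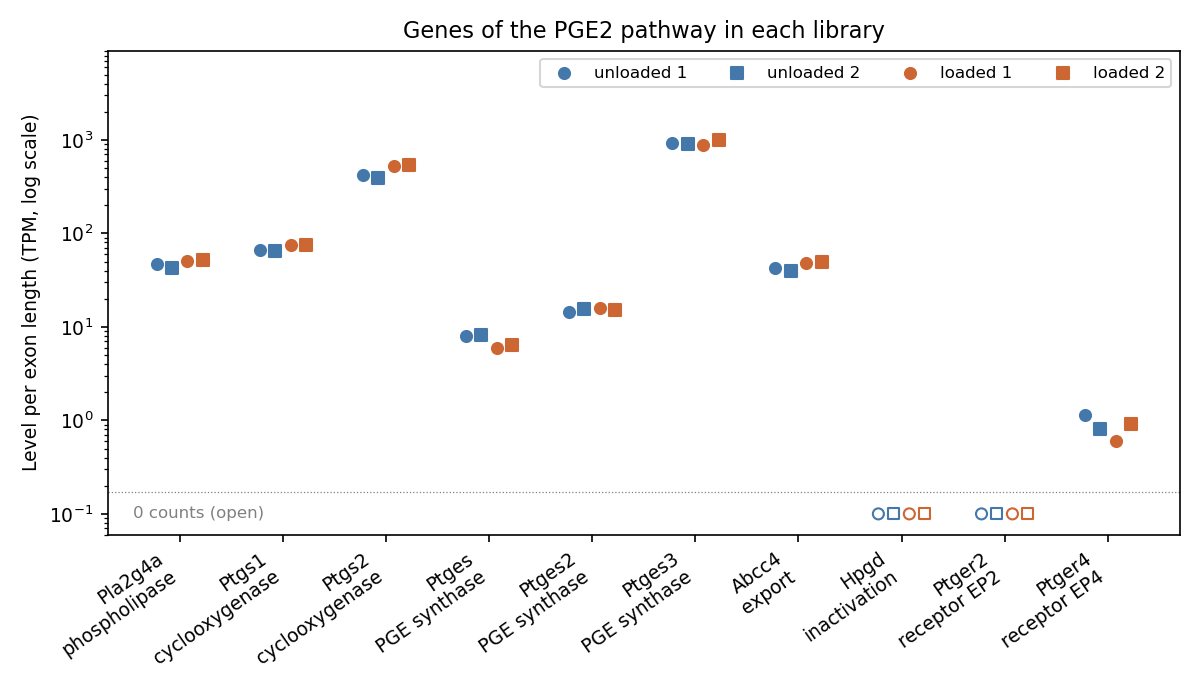
Level of each of the 10 genes in each library, in TPM on a log axis, in the order of the pathway. Circles are replicate 1 and squares replicate 2; open symbols below the dotted line mark 0 counts. *Ptges3* and *Ptgs2* stood highest, and *Hpgd* and *Ptger2* had 0 counts in every library.

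Ratios between pairs of genes were taken within each library, which removes library size. That of *Ptges* to *Ptgs2* was 0.0189 and 0.0212 without loading and 0.0114 and 0.0119 with it, 0.581 times as high. The loaded libraries thus had less *Ptges* per *Ptgs2*, with no overlap. That of *Abcc4* to *Abcc1*, which encodes the related exporter MRP1, was 0.899 and 0.884 unloaded and 1.11 and 1.18 loaded, 1.28 times as high. *Abcc1* itself was at 203 ± 5.50 CPM (SD, n = 2) unloaded and 192 ± 3.93 CPM (SD, n = 2) loaded (edgeR adjusted p = 0.641). These 2 ratios were picked after their values were seen and were not tested. Ratios to *Hpgd* and *Ptger2* could not be formed.

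**Figure D3:**
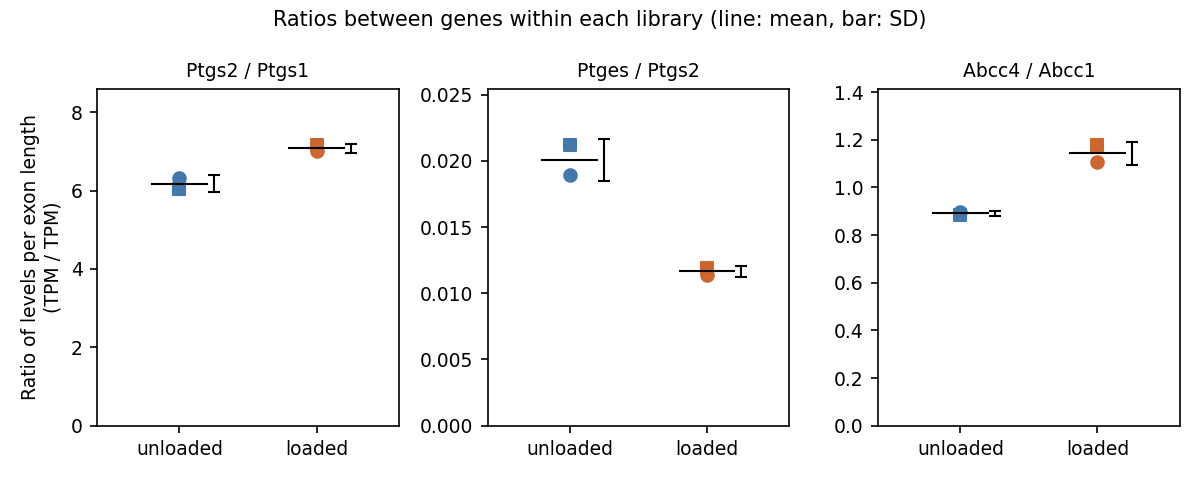
Ratio of levels per exon length (TPM over TPM) for 3 gene pairs within each library. Circles are replicate 1 and squares replicate 2, lines are group means and bars the SD (n = 2). The loaded libraries lay higher for *Ptgs2* to *Ptgs1* (7.08 against 6.18) and *Abcc4* to *Abcc1* (1.14 against 0.891), and lower for *Ptges* to *Ptgs2* (0.0117 against 0.0201).

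The rest of the pathway was covered by 9 lists with 112 genes, of which 92 were tested. In edgeR, 0 of the 92 had an adjusted p under 0.01 or under 0.05. At an unadjusted p under 0.05 there were 9 higher and 9 lower, where 6.88% of all tested genes were higher and 7.46% lower, the background for each list below as well. Among them, *Mgll* and *Cysltr1* had 0 counts in 1 group and passed the count filter only through the group in which they were high. DESeq2 called *Zfp36l2* higher and *Pde4a* and *Sik1* lower at an adjusted p under 0.01, where 2.91% of all genes with an adjusted p were called in either direction. The median log2 fold change was -0.01 over the 92 genes.

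**Figure D4:**
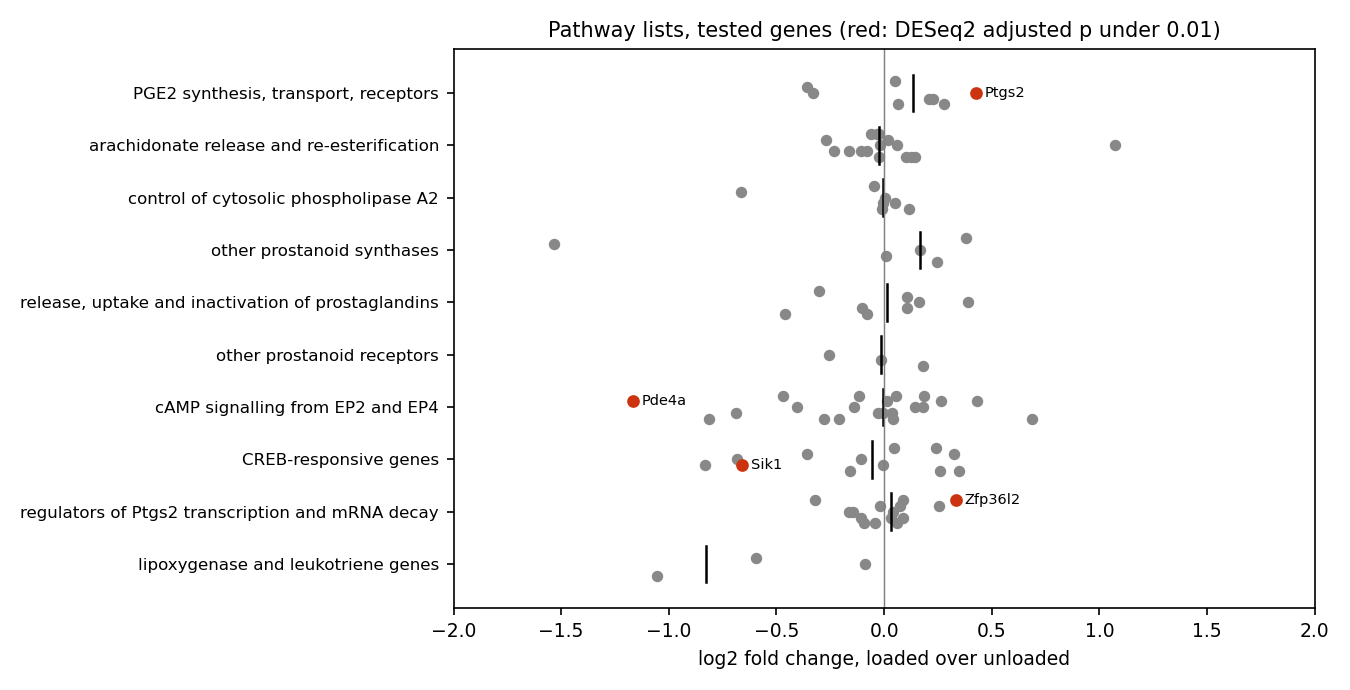
Log2 fold change of every tested gene in the 10 PGE2 genes and the 9 further lists, with 1 point per gene and black lines at list medians. Red points have a DESeq2 adjusted p under 0.01; *Mgll* and *Cysltr1*, each at 0 counts in 1 group, lie off the axis. The PGE2 genes had a median of 0.14. The line of the lipoxygenase and leukotriene list, in which no lipoxygenase gene was tested, counts *Cysltr1*, which had to be lower. That of arachidonate release counts *Mgll*, which had to be higher.

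Upstream of the cyclooxygenases, arachidonate release and re-esterification had 17 tested genes of 21, with 2 higher and 0 lower at an edgeR p under 0.05 and a median log2 fold change of -0.02. Of the 2, *Mgll* was tested only because of its loaded counts and had to be higher, and *Pla2g2e*, a secreted phospholipase A2, had 37 and 60 counts unloaded and 144 and 71 loaded. Its most abundant genes were *Fads2* and *Fads1*, the desaturases that make arachidonic acid, and *Acsl4*, which activates it for re-esterification. *Fads2* was at 331 CPM unloaded and 361 loaded (edgeR adjusted p = 0.531), and *Fads1* and *Acsl4* had log2 fold changes of -0.06 and -0.08. Of the 7 genes that control cytosolic phospholipase A2, 1 was lower at p under 0.05 in edgeR, and the median was -0.00. *Anxa1*, *Anxa2* and *S100a10*, which encode annexins and an annexin partner that bind or inhibit the phospholipase, had log2 fold changes of -0.01, -0.00 and 0.05.

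Beside the prostaglandin E synthases, 5 of 8 synthases of other prostanoids were tested. *Akr1b3*, an aldose reductase with prostaglandin F synthase activity, was at 114 ± 4.74 CPM (SD, n = 2) unloaded and 135 ± 2.90 CPM (SD, n = 2) loaded. Its log2 fold change was 0.25 (edgeR adjusted p = 0.209). *Cbr1* and *Cbr3*, carbonyl reductases that convert prostaglandin E2, had values of 0.01 and 0.17. Among the 8 genes of release, uptake and inactivation, 1 was higher and 1 lower at p under 0.05 in edgeR. *Gja1* encodes connexin 43, whose hemichannels release prostaglandin E2 from osteocytes, and was at 497 ± 4.63 CPM (SD, n = 2) unloaded and 535 ± 69.9 CPM (SD, n = 2) loaded. For *Ptgr1*, a prostaglandin reductase, the log2 difference was 0.11 (edgeR adjusted p = 0.689).

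Of 8 other prostanoid receptor genes, 3 were tested and 0 passed p under 0.05 in edgeR. *Ptgir*, the prostacyclin receptor gene, differed by -0.25 on the log2 scale (edgeR adjusted p = 0.718), and *Ptgfrn*, a regulator of the prostaglandin F receptor, one of -0.01.

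Downstream of EP2 and EP4, 21 of 23 genes of cyclic AMP signalling were tested, with 2 higher and 3 lower at p under 0.05 in edgeR and a median of -0.01. *Pde4a*, a phosphodiesterase that degrades cyclic AMP, was at 12.8 and 16.7 CPM without loading and 6.88 and 6.24 CPM with it. Its log2 fold change in edgeR was -1.17 (SE 0.191), with an adjusted p of 0.00132 in DESeq2 and 0.0663 in edgeR. The abundant *Gnas* (Gs alpha) and *Prkar1a* (a regulatory subunit of protein kinase A) had log2 fold changes of -0.03 and 0.01, and *Prkar2a* one of 0.19 (edgeR adjusted p = 0.336).

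All 12 CREB-responsive genes were tested, with 1 higher and 1 lower at p under 0.05 in edgeR and a median of -0.06. *Sik1*, a CREB target that encodes a kinase restraining CREB coactivators, was at 50.2 and 54.2 CPM unloaded and 31.1 and 34.9 CPM loaded. Its log2 fold change was -0.66 (SE 0.107), with an adjusted p of 0.000627 in DESeq2 and 0.0663 in edgeR. *Dusp1*, a MAP kinase phosphatase, was at 63.3 CPM unloaded and 79.2 loaded (edgeR adjusted p = 0.219). *Cited2*, a transcriptional coregulator, had a value of -0.01.

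Regulators of *Ptgs2* transcription and mRNA decay had 15 tested genes of 16, with 2 higher and 0 lower at p under 0.05 in edgeR. *Zfp36l2*, which encodes a protein that binds AU-rich elements and promotes mRNA decay, was at 200.5 and 205 CPM unloaded and 256 and 254 CPM loaded. Its log2 fold change was 0.33 (SE 0.0600), with an adjusted p of 0.00316 in DESeq2 and 0.0874 in edgeR. *Jun*, an AP-1 subunit, and *Khsrp*, an RNA-binding decay factor, had values of 0.09 and -0.09.

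The lipoxygenase and leukotriene genes, which draw on the same arachidonic acid, had 4 tested genes of 9. No gene of a lipoxygenase itself was among the 4. *Alox12* and *Alox15* had 0 counts in all libraries, *Alox5* had 8 counts in loaded 1 only and *Alox12b* had 4 in unloaded 1 only. *Cysltr1* was tested only because of its unloaded counts and had to be lower, and it is not counted further. The other 3 tested genes had negative values, 2 of them with p under 0.05 in edgeR. *Alox5ap*, the 5-lipoxygenase activating protein, was at 2.35 CPM unloaded and 1.13 loaded (log2 fold change -1.05, edgeR adjusted p = 0.256). *Ltc4s*, leukotriene C4 synthase, was at 17.97 CPM unloaded and 11.87 CPM loaded (-0.60, edgeR adjusted p = 0.190), and *Lta4h*, which makes leukotriene B4, had a value of -0.09. The macrophage marker *Cd68* lay lower with loading too, at 99 and 84 counts against 162 and 141, while the summed CPM of the 4 macrophage markers was 1579 and 1589 unloaded and 1561 and 1565 loaded. Nearly all of that sum was *Csf1r*. Of the 4, 2 could be tested, with log2 fold changes of -0.80 for *Cd68* (edgeR adjusted p = 0.216) and -0.02 for *Csf1r* (edgeR adjusted p = 0.910). *Ptprc* and *Adgre1* were at 0 in both unloaded libraries. The part of these markers in the values of *Alox5ap*, *Ltc4s* and *Lta4h* was not tested. *Actb*, a common reference gene, differed by 0.03 on the log2 scale (edgeR adjusted p = 0.914).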

How the data were processed

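RNA from 4 samples of MLO-Y4 cells was sequenced after removal of ribosomal RNA. Per the labels and the study's methods, the authors filtered the reads, aligned them to mm10 with HISAT2 2.1.0, assembled them with StringTie 1.3.5 and deposited raw counts per gene made with StringTie's prepDE script. The annotation release, read length and strand setting were not given in the sources used here. All gene IDs were found in GENCODE M21 (GRCm38), which gave coordinates and exon lengths, and columns without a sample in the labels numbered 0. The 10 genes and all lists were chosen with earlier results of these data known. Genes passing filterByExpr (minimum count 10) were tested with edgeR 4.0.16 (R 4.3.3): TMM factors of 0.983 to 1.01, quasi-likelihood F test on both groups, Benjamini-Hochberg adjustment over 16269 genes, threshold 0.01, biological coefficient of variation 16.6%. CPM used TMM-scaled library sizes, and TPM used the merged exon length of each gene. DESeq2 1.42.0, edgeR's exact test, other filters and scalings, a replicate block and omission of each library were alternatives, as were counts divided by 4 and another transcript length. Sequence likeness was checked with blastn 2.17.0+, and the fits were tested on simulated data. Named were the 10 genes, genes that overlap or resemble them, *Actb* and, per list, the 3 genes of highest mean CPM and any with an adjusted p under 0.01 in edgeR or DESeq2. The levels of *Ptger1*, named by this rule, are not reported here.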

Additional observations from a re-analysis of the deposited data

How the results depend on the processing

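The number of genes called at an adjusted p under 0.01 depended on the test. There were 16 (2 higher, 14 lower) in edgeR's quasi-likelihood test, 0 without a filter, 29 (4 and 25) with at least 10 counts in every library, 363 (170 and 193) in DESeq2, 279 (104 and 175) in edgeR's exact test and 147 (55 and 92) at 0.05. With single libraries left out there were 0 to 58 (0 to 19 higher, 0 to 40 lower): 50 without unloaded 1, 58 without unloaded 2 and 0 without loaded 1 or loaded 2. Of the 10 PGE2 genes, 0 were called higher, and 1, *Ptgs2*, in DESeq2, the exact test and at 0.05. Of the pathway lists, 3 genes were called in DESeq2 and 4 in the exact test, where 363 and 279 of all genes were called. The 4 were *Pde4a*, *Sik1*, *Mgll* and *Cysltr1*. Of these, *Mgll* and *Cysltr1* passed the count filter only through the group in which they were high, so their calls are no result. The labels number the replicates, but same-numbered libraries did not deviate together (correlation -0.057). With a replicate block 0 genes were called, 0 higher and 0 lower, and *Ptgs2* had an adjusted p of 0.148. Over all alternatives the log2 fold change of *Ptgs2* was 0.39 to 0.47, of *Abcc4* 0.24 to 0.33, of *Ptgs1* 0.21 to 0.24, of *Pla2g4a* 0.15 to 0.27, of *Ptges* -0.42 to -0.29 and of *Ptger4* -0.67 to -0.05. Of 104 alternative values of the 8 tested genes, 100 had the same direction and side of the threshold. With single libraries left out, signs turned for *Ptges2* (-0.013 to 0.13), *Ptges3* (-0.038 to 0.16), *Actb* (-0.093 to 0.15), *Anxa1* (-0.032 to 0.019), *Anxa2* (-0.0095 to 0.0086), *Cbr1* (-0.089 to 0.12), *Cited2* (-0.079 to 0.077), *Gja1* (-0.031 to 0.23), *Gnas* (-0.10 to 0.042), *Prkar1a* (-0.0090 to 0.035), *Ptger1* (-0.23 to 0.50) and *Ptgfrn* (-0.073 to 0.058). *Anxa2* was also at 0.0053 with RLE factors, 0.00013 with at least 10 counts in every library and 0.0039 in DESeq2, and *Cited2* at 0.0024 with RLE factors and 0.0011 in DESeq2. The cause was not tested. Counts divided by 4, chosen after seeing the data, gave 23 genes called and 0 PGE2 genes. Having 2 libraries per group, uneven low counts and an unknown strand setting limit what can be read from genes near the floor.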

Other observations

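The genes below were picked after their values were seen. *Mgll*, monoacylglycerol lipase, had 0 counts in both unloaded libraries and 22 and 14 with loading. With 3 counts per library put in place of 0, it was 5.69-fold higher. *Cysltr1*, a cysteinyl leukotriene receptor, had 12 and 23 counts unloaded and 0 in both loaded libraries, 6.05-fold lower in the same way. These 2 values are not lower bounds. They leave out the error of the counts above 0 and the several counts that 1 read pair may have contributed. *Pde8a*, another phosphodiesterase of cyclic AMP, had 213 and 218 counts unloaded and 354 and 370 loaded (log2 fold change 0.69, edgeR adjusted p = 0.147), while *Pde4a* lay in the other direction. For *Pla2g2e* the log2 difference was 1.07 (edgeR adjusted p = 0.330).

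Replicates lay far apart for some signalling genes. *Creb1*, the transcription factor downstream of cyclic AMP, had 2559 and 2666 counts unloaded and 2630 in loaded 1, but 825 in loaded 2. *Arrb1*, beta-arrestin 1, had 3822 and 1128 counts unloaded and 807 and 2892 loaded. *Mapk14*, the p38 kinase that acts on cytosolic phospholipase A2, had 1163 and 1948 counts unloaded and 1145 and 902 loaded.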
